A study of Homo sapiens with 8 samples.

Results

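Interferon-stimulated genes are the genes that cells switch on when interferon, the secreted alarm signal of virus infection, binds its receptor. The set described here held 45 genes listed by symbol, with no measured value in the rule. All 45 were found among the 38010 gene identifiers of the count table, and 42 of them had enough reads to be tested, of 15184 genes tested in all. They were measured by bulk RNA-seq in confluent cultures of Ea.hy926, a human hybrid cell line made by fusing umbilical vein endothelial cells with a lung carcinoma line. Rho0 cells, which lack oxidative phosphorylation, were set against the parental Ea.hy926 cells, with 4 biological replicates in each group. The labels name no added agent for either group and do not say whether the Rho0 line is 1 clone. A difference between the lines that has nothing to do with respiration cannot be told apart from the Rho0 state, and the p-values measure the spread between cultures of these lines.

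Interferons of the alpha and beta type act through the receptor chains IFNAR1 and IFNAR2 and the kinases JAK1 and TYK2, which phosphorylate STAT2, among other proteins. STAT2 and IRF9 belong to the complex that binds the interferon-stimulated response element in the promoters of many of the genes described here. The gene products degrade viral RNA, block virus entry or exit, tag proteins with the modifier ISG15, or feed back on the signal, and many are also transcribed at a low level in cells that have met no virus.

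The 8 libraries held between 11721448 and 37203313 estimated counts, the smallest and the largest both being Rho0 libraries. Levels are given below as CPM, a count relative to the size of its library after scaling by the trimmed mean of M-values (TMM), so that 1 read was worth 0.0225 to 0.0753 CPM in Rho0 libraries and 0.0398 to 0.0516 CPM in parental libraries. The 13 protein-coding genes of mitochondrial DNA, which Rho0 cells are defined by losing, took 0.00296% to 0.149% of the counts in Rho0 libraries and 16.0% to 21.4% in parental libraries. Of these Rho0 values the highest, 0.149%, was that of replicate 2. Of the endothelial markers, PECAM1 averaged 2118 ± 67.2 CPM in Rho0 and 1086 ± 41.4 CPM in parental cells (SD, n = 4 each), and CDH5 averaged 1034 ± 32.7 CPM in Rho0 and 1718 ± 92.5 CPM in parental cells. KDR had the largest change of the list and was higher in Rho0 cells (edgeR log2 fold change 3.24, adjusted p = 2.57e-09). Of 9 tested endothelial markers 4 were higher (44.4%, beside 29.0% of all genes) and 3 lower (33.3%, beside 25.4%). The 10 listed summed to 4985 to 5304 CPM in Rho0 and 4868.5 to 5229.7 CPM in parental cells. The leukocyte markers CD3D, CD3E and MS4A1 had no read in any library, while the 12 listed leukocyte markers summed to 18.3 to 20.8 CPM in Rho0 and 6.75 to 7.37 CPM in parental cells. Most of that sum came from LYZ and CD53 in Rho0 cells. Of 5 tested leukocyte markers 4 were higher (80.0%, beside 29.0% of all genes) and 1 lower (20.0%, beside 25.4%). Among the higher ones PTPRC had overlapping groups (0.66, edgeR adjusted p = 0.0385). It was called in only 2 of the 8 fits that left out a library. The lower one was CSF1R (edgeR log2 fold change −1.42, adjusted p = 4.1e-04). The 8 epithelial markers summed to 1310 to 2096 CPM in Rho0 and 2619 to 2892 CPM in parental cells; KRT8 and KRT18 were lower, MUC1 and EPCAM higher, and KRT7 not called. The 6 fibroblast markers summed to 1.46 to 2.32 CPM in Rho0 and 1.65 to 2.51 CPM in parental cells. The part of these shifts in the results was not tested.

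The interferon-stimulated genes were on the whole lower in Rho0 cells, with a minority going the other way. By the edgeR quasi-likelihood test with Benjamini-Hochberg adjustment over all genes, 22 of the 42 tested genes were lower in Rho0 cells at an adjusted p of at most 0.05. This was 52.4% of them, where 25.4% of all genes tested were lower. A further 4 were higher, or 9.52%, where 29.0% of all genes tested were higher, and 16 were not called. The change was 1 log2 unit or larger for 9 of the lower and 2 of the higher genes, against a background of 5.51% lower and 8.76% higher. The estimate was negative for 34 of the 42 genes and positive for 8. The median log2 fold change was −0.44, beside 0.05 over all genes tested, and the range was −3.28 (OASL, lower in Rho0) to 1.20 (SAMD9, higher). All 4 Rho0 libraries lay below all 4 parental libraries for 21 genes (24.3% of all genes tested did so) and above them for 4 (26.6% of all), and the groups overlapped for 17. Added up over the 45 genes, the level was 1548 to 1618 CPM in Rho0 libraries and 2352 to 2630 CPM in parental libraries. Without the abundant IFITM2 and IFITM3 it was 948 to 1148 CPM in Rho0 and 1375 to 1483 CPM in parental libraries, so the groups stayed apart.

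These counts depended on the scaling. With library size alone in place of TMM, 10 of the genes were higher and 15 lower in Rho0 cells, where 56.5% of all genes were higher and 10.1% lower, and the median was −0.05, but the median of all genes then lay at 0.44. Lower genes thus come out with smaller and higher genes with larger fold changes. The median of the set relative to that of all genes was −0.49 with either scaling. This is no check of the result, because a change of scaling moves all genes by nearly the same amount. Because bulk RNA averages over a culture, fewer cells expressing a gene and less of its RNA per cell cannot be told apart.

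**Figure D1:**
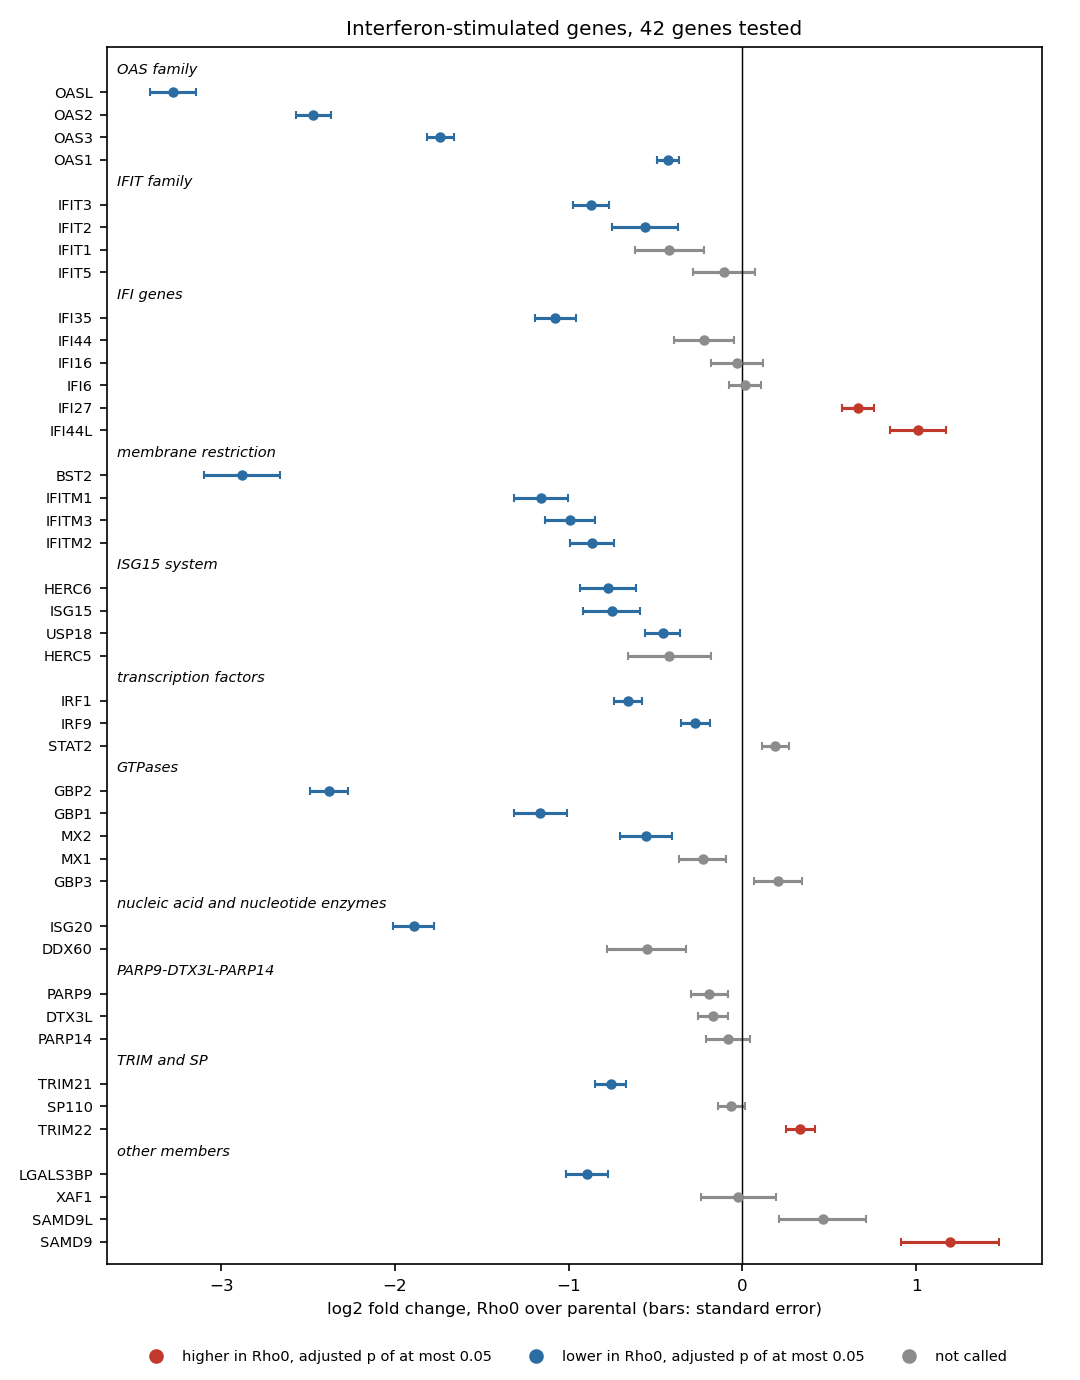
Log2 fold change, Rho0 over parental, of the 42 tested interferon-stimulated genes grouped by role, with bars of 1 standard error from the edgeR fit (4 libraries a group). Most points lie left of 0, OASL farthest at −3.28, and 4 called genes (SAMD9, IFI44L, IFI27 and TRIM22) lie to the right.

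**Figure D2:**
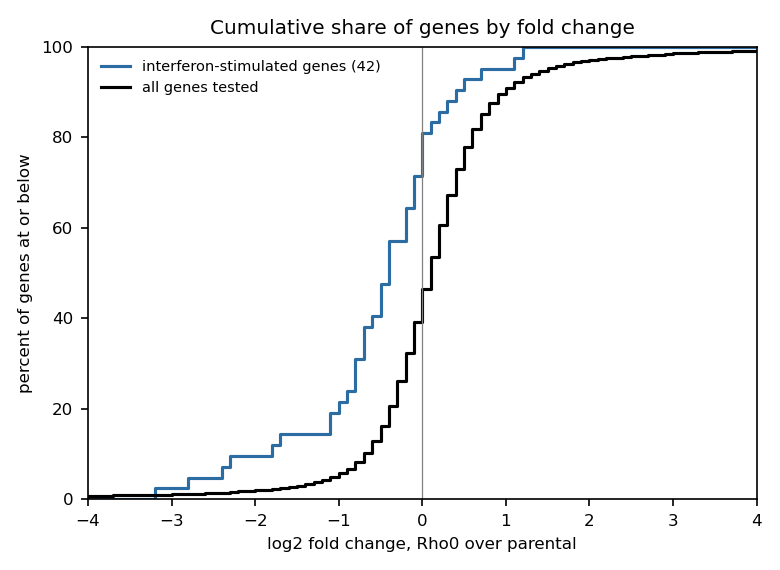
Share of genes at or below each log2 fold change (Rho0 over parental), in percent, for the 42 tested interferon-stimulated genes and for all 15184 tested genes. The curve of the set runs above that of all genes from −3.2 to 4.0 and below it at −3.3 and less. The median is −0.44 for the set and 0.05 for all genes.

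Most of the set shared a promoter element. Of the 45 genes, 37 were matched by symbol to RefSeq promoter windows, which run from 250 bases before to 50 bases after the annotated start on GRCh38.p14; OAS2, OASL, IFIT2, IFITM2, USP18, MX2, GBP2 and TRIM22 were not among them. The core of the interferon-stimulated response element was searched on both strands as GAAA, any 2 bases and GAAA. A match was present for 26 of the 37 genes (70.3%) and for 1195 of 27305 genes in the whole table (4.38%). The GAS motif of STAT dimers, searched as TTC, any 3 bases and GAA, which reads the same on both strands, was present for 13 of the 37 genes (35.1%) and for 2560 of all genes (9.38%). Within the set the response element was found in 10 of 15 genes lower in Rho0 cells, in 3 of 3 higher genes and in 11 of 16 genes that were not called. Matches of both motifs may overlap, and a match is a description of letters, not of binding. The 150 bases before the RefSeq start are printed for the 6 genes with a match there that changed most, since they show the same element upstream of genes that were lower (BST2, ISG20, OAS3, GBP1 and IFITM1) and of a gene that was higher in Rho0 cells (SAMD9). They run 5′ to 3′ on the strand of the gene. Capitals mark a response element core, on either strand, that lies wholly within the printed bases. The windows are chr19:17405631-17405780 (minus strand) for BST2, chr15:88638866-88639015 (plus) for ISG20, chr12:112938324-112938473 (plus) for OAS3, chr7:93117980-93118129 (minus) for SAMD9, chr1:89065209-89065358 (minus) for GBP1 and chr11:313890-314039 (plus) for IFITM1. In GENCODE 29 the annotated bounds of ISG20, GBP1 and IFITM1 take in all 150 printed bases. Those of OAS3 take in 122, of SAMD9 44 and of BST2 18. Printed bases within these bounds may be transcribed.
BST2: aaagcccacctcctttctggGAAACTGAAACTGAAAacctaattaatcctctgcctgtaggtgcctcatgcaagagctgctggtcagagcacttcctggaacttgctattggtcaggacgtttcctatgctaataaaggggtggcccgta
ISG20: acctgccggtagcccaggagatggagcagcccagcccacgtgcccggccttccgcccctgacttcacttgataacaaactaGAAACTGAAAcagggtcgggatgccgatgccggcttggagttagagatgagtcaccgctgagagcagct
OAS3: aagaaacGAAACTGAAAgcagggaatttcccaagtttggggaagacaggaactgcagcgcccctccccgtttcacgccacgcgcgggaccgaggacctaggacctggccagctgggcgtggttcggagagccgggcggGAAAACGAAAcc
SAMD9: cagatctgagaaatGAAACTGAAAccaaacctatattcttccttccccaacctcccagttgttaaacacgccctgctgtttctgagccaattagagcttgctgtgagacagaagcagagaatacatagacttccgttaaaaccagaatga
GBP1: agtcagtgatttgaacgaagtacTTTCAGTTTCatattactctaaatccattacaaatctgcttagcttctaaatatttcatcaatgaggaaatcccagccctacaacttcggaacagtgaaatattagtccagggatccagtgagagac
IFITM1: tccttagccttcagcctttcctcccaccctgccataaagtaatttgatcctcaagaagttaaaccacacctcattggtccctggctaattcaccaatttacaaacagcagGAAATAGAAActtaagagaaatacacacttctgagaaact
The printed bases of BST2 held a pair of overlapping matches and those of OAS3 a pair that lie far apart. Those of the other 4 genes held 1 whole match each. A further IFITM1 match, GAAACTGAAA, has its first base at −6, runs past the start and is not marked. The GBP1 match lies on the opposite strand to the gene.

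The oligoadenylate synthetases had the lowest median fold change of the groups of genes described here. OAS1, OAS2 and OAS3 sense double-stranded RNA and make the oligoadenylates that activate RNase L, and OASL is a related protein without that enzyme activity that promotes RNA sensing through RIG-I. All 4 were lower in Rho0 cells with no overlap of libraries. Of all genes tested, 25.4% were lower and 24.3% had all Rho0 libraries below. The median of the log2 fold changes of the 4 was −2.10. OASL (ENSG00000135114) had 1.12, 1.51, 1.16 and 0.992 CPM in Rho0 cells, against 11.0, 11.3, 11.8 and 10.8 CPM in parental cells. The 4 Rho0 libraries were uniformly low, and OASL was 9.71-fold lower (edgeR log2 fold change −3.28 with SE 0.13, adjusted p = 1.55e-08). OAS2 had 12.8, 17.3, 14.2 and 14.7 CPM in Rho0 cells, against 77.4, 89.1, 77.4 and 80.4 CPM in parental cells. That is 5.54-fold lower (edgeR log2 fold change −2.47 with SE 0.10, adjusted p = 1.61e-08). OAS3 had 30.8, 37.4, 32.4 and 33.6 CPM in Rho0 cells, against 106, 112, 117 and 111 CPM in parental cells (edgeR log2 fold change −1.74 with SE 0.08, adjusted p = 2.79e-08). OAS1 differed much less, with 44.6, 44.3, 45.2 and 42.6 CPM in Rho0 cells, against 56.8, 63.0, 59.7 and 58.0 CPM in parental cells. Its log2 fold change was −0.43 (SE 0.06, edgeR adjusted p = 2.48e-04), and it was the only gene of the family whose call was lost with library size alone (adjusted p = 0.675). OAS1, OAS3 and OAS2 lie in that order on chromosome 12, between 112906777 and 113011723 on GRCh38 in GENCODE 29, and their log2 fold changes grew in size in the same order.

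**Figure D3:**
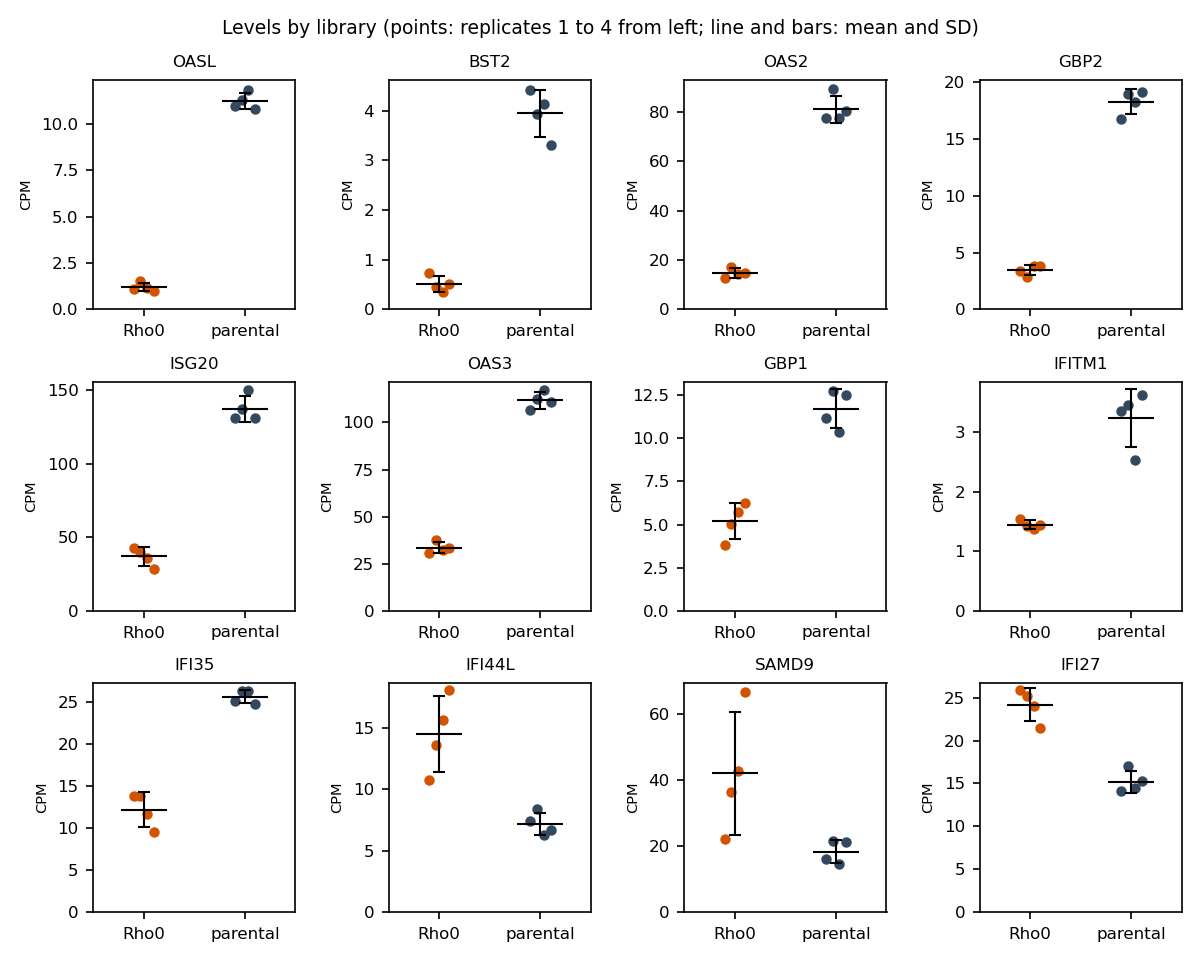
CPM (linear axes from 0) in each Rho0 and each parental library, for the 11 interferon-stimulated genes that were called and changed by 1 log2 unit or more, and for IFI27; points are libraries, lines and bars the mean and SD (n = 4). The groups do not overlap in any panel. Of all genes tested, 24.3% had all Rho0 libraries below and 26.6% above. The Rho0 points of SAMD9 (22.3 to 66.8 CPM) are spread widely.

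Of the 4 IFIT genes, whose proteins bind foreign RNA, 2 were lower in Rho0 cells and 2 were not called. IFIT3, which stabilises IFIT1, was lower in Rho0 cells with no overlap, averaging 6.02 ± 0.561 CPM in Rho0 and 11.0 ± 0.769 CPM in parental cells (SD, n = 4 each; edgeR log2 fold change −0.87 with SE 0.10, adjusted p = 4.51e-05). IFIT2 was called lower at −0.56 (edgeR adjusted p = 0.0282), but this call was lost when any of 5 of the 8 libraries was left out (Rho0 replicates 1 and 2 and parental replicates 1, 2 and 4, with adjusted p of up to 0.0744) and with library size alone. IFIT1, which recognises viral RNA caps, was not called at −0.42 (SE 0.20, edgeR adjusted p = 0.0968), with 2.19 to 3.34 CPM in Rho0 and 2.53 to 4.57 CPM in parental cells. Without Rho0 replicate 4 it was called at −0.57 (adjusted p = 0.0287), and without parental replicate 3 at −0.56 (adjusted p = 0.0279). IFIT5 was not called at −0.10 (SE 0.18, edgeR adjusted p = 0.65).

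The 4 genes of membrane proteins that block virus entry and exit were all lower, where 25.4% of all genes tested were lower. BST2, or tetherin, holds budding virus particles at the cell surface and was a gene of low level in both lines. It had 0.730, 0.452, 0.343 and 0.518 CPM in Rho0 cells, against 4.41, 3.94, 4.12 and 3.30 CPM in parental cells. Every Rho0 library was below 1 CPM and every parental library above 3 CPM (edgeR log2 fold change −2.88 with SE 0.22, adjusted p = 1.47e-06; −1.73 by limma on the authors' log2 values). IFITM1, IFITM2 and IFITM3 hinder the fusion of viral and cell membranes. IFITM3 had the highest mean level of the set, with 486, 418, 418 and 293 CPM in Rho0 cells, against 749.6, 799, 929 and 735 CPM in parental cells. IFITM2 had 161, 140.4, 137 and 107 CPM in Rho0 cells, against 227, 246, 292 and 229 CPM in parental cells. IFITM1 had 1.54, 1.43, 1.37 and 1.44 CPM in Rho0 cells, against 3.35, 3.46, 2.53 and 3.63 CPM in parental cells. In none of the 3 did the groups overlap, where 24.3% of all genes tested had all Rho0 libraries below. Rho0 replicate 4 was the lowest library for IFITM2 and IFITM3. Their log2 fold changes were close, at −1.16 (SE 0.16) for IFITM1, −0.87 (SE 0.13) for IFITM2 and −0.99 (SE 0.14) for IFITM3. The edgeR adjusted p-values were 1.19e-04 for IFITM1, 1.91e-04 for IFITM2 and 1.95e-04 for IFITM3. The copies resemble each other: 35.3% of the 31-base stretches in the transcripts of IFITM1, 45.2% in IFITM2 and 36.4% in IFITM3 also occur in another gene, so the split of reads between them is uncertain.

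The ISG15 system attaches the ubiquitin-like protein ISG15 to other proteins. ISG15 itself had 9.15, 8.82, 7.59 and 5.23 CPM in Rho0 cells, against 12.6, 14.0, 11.4 and 13.2 CPM in parental cells (edgeR log2 fold change −0.75 with SE 0.16, adjusted p = 0.00276). The groups did not overlap, and Rho0 replicate 4 was the lowest. USP18, which removes ISG15 and dampens signalling at IFNAR2, was lower at −0.46 (edgeR adjusted p = 0.00311), though 30.8% of its 31-base stretches occur elsewhere, chiefly in USP41. HERC6, the main ISG15 ligase in mouse, was lower at −0.77 (edgeR adjusted p = 0.00223). HERC5, the main ISG15 ligase in human cells, was not called, with 0.898 to 1.37 CPM in Rho0 and 1.02 to 1.74 CPM in parental cells (edgeR adjusted p = 0.159). With library size alone the calls of ISG15, USP18 and HERC6 were lost. UBE2L6, the ISG15-conjugating enzyme and one of the further interferon-stimulated genes described below, had 79.3, 75.6, 72.0 and 61.4 CPM in Rho0 cells, against 154, 159, 178 and 151 CPM in parental cells (edgeR log2 fold change −1.16 with SE 0.09, adjusted p = 2.29e-06). It is named here for its place in this system, with its value known.

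Of the 3 transcription factors of the set, 2 were lower in Rho0 cells (66.7%, beside 25.4% of all genes tested) and 1 was not called. STAT2 had 104, 103, 94.4 and 85.8 CPM in Rho0 cells, against 87.9, 83.8, 87.9 and 79.2 CPM in parental cells. The groups overlapped and STAT2 was not called (edgeR log2 fold change 0.19 with SE 0.08, adjusted p = 0.062); it was called higher at 0.24 without Rho0 replicate 4 (adjusted p = 0.00956), at 0.58 with library size alone (3.49e-05), at 0.21 with a filter of 50 counts (0.03) and at 0.20 with a length and GC correction (0.0108). IRF9 had 44.3, 42.0, 48.8 and 39.3 CPM in Rho0 cells, against 50.8, 57.8, 49.8 and 51.6 CPM in parental cells. It was called lower at −0.27 (SE 0.09, edgeR adjusted p = 0.0202), but not without parental replicate 2 (adjusted p = 0.0709), and its sign turned to 0.12 with library size alone. Of the 31-base stretches of IRF9, 49.5% also occur in another gene, chiefly AL136295.5, so its level is uncertain. IRF1, which itself activates many of these genes, had 26.2, 24.4, 23.9 and 21.8 CPM in Rho0 cells, against 36.5, 35.5, 40.6 and 39.4 CPM in parental cells. It was lower with no overlap (edgeR log2 fold change −0.66 with SE 0.08, adjusted p = 6.09e-05).

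Among the interferon-induced GTPases the guanylate-binding proteins, which attack membranes around intracellular pathogens, split. GBP2 had 3.40, 2.86, 3.82 and 3.79 CPM in Rho0 cells, against 16.8, 19.0, 18.3 and 19.2 CPM in parental cells (edgeR log2 fold change −2.38 with SE 0.11, adjusted p = 3.32e-08). GBP1 had 3.84, 5.05, 5.75 and 6.24 CPM in Rho0 cells, against 11.2, 12.8, 10.4 and 12.5 CPM in parental cells (edgeR log2 fold change −1.16 with SE 0.15, adjusted p = 8.39e-05). Neither gene's groups overlapped, where 24.3% of all genes tested had all Rho0 libraries below. GBP3, their neighbour on chromosome 1, was not called, with 9.82 to 15.1 CPM in Rho0 and 9.23 to 12.0 CPM in parental cells (edgeR log2 fold change 0.20 with SE 0.14, adjusted p = 0.234). Between 12.3% and 18.4% of the 31-base stretches of these 3 genes are shared. The dynamin-like MX2, which restricts HIV, was lower at −0.56 (edgeR adjusted p = 0.00884; not called with library size alone), and MX1, which restricts influenza virus, was not called at −0.23 (edgeR adjusted p = 0.179).

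Of the nucleic acid enzymes, ISG20, an exonuclease that degrades RNA, had 43.0, 40.3, 36.3 and 28.7 CPM in Rho0 cells, against 131, 137, 149.8 and 131 CPM in parental cells. All Rho0 libraries were far below the parental ones (edgeR log2 fold change −1.89 with SE 0.12, adjusted p = 3.61e-07). DDX60, a helicase that aids RNA sensing, was not called at −0.55 (SE 0.23, edgeR adjusted p = 0.063), but was called lower in 8 of 18 alternative settings, among them without Rho0 replicate 4 (−0.84, adjusted p = 0.00159). RSAD2, or viperin, which makes a chain-terminating nucleotide, was too low to pass the filter on low counts and so was not tested. In the alternative with no such filter RSAD2 was called lower. It had 2, 2, 0 and 4 estimated counts in Rho0 libraries and 7, 9, 7 and 6 in parental libraries. Over the library sizes the 8 Rho0 and 29 parental counts give a ratio of 0.208 of Rho0 over parental (exact 95% interval 0.0821 to 0.466, counting error only). CMPK2, the mitochondrial nucleotide kinase beside RSAD2, and EPSTI1 had no count in any of the 8 libraries. A count of 0 allows up to 3 counts, or 0.0676 to 0.226 CPM in Rho0 and 0.119 to 0.155 CPM in parental libraries.

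Genes named only for their induction by interferon went in both directions. IFI35, a partner of the protein NMI, had 13.8, 13.8, 11.7 and 9.51 CPM in Rho0 cells, against 25.1, 26.3, 26.2 and 24.7 CPM in parental cells (edgeR log2 fold change −1.08 with SE 0.12, adjusted p = 2.53e-05). IFI44L, which restrains the interferon response, was higher, with 10.7, 13.6, 15.6 and 18.1 CPM in Rho0 cells, against 7.39, 8.39, 6.29 and 6.70 CPM in parental cells (edgeR log2 fold change 1.01 with SE 0.16, adjusted p = 3.75e-04). Its neighbour IFI44 was not called at −0.22 (edgeR adjusted p = 0.31; −0.40 and adjusted p = 0.0316 without Rho0 replicate 4). IFI27, a small hydrophobic membrane protein, was also higher, with 25.9, 25.2, 24.0 and 21.5 CPM in Rho0 cells, against 14.1, 17.0, 14.5 and 15.3 CPM in parental cells (edgeR log2 fold change 0.66 with SE 0.09, adjusted p = 1.41e-04). IFI6, a membrane protein of the endoplasmic reticulum that blocks flavivirus replication, averaged 18.1 ± 1.40 CPM in Rho0 and 18.0 ± 1.61 CPM in parental cells (SD, n = 4 each) and was not called. The nuclear DNA sensor IFI16 had 118, 138, 164 and 206 CPM in Rho0 cells, against 153, 175, 148 and 164 CPM in parental cells. The Rho0 libraries of IFI16 reached both below and above the parental range (edgeR log2 fold change −0.03 with SE 0.15, adjusted p = 0.878).

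SAMD9 and SAMD9L are neighbouring genes on chromosome 7 whose products restrict poxviruses. SAMD9 had 22.3, 36.3, 42.9 and 66.8 CPM in Rho0 cells, against 16.2, 21.6, 14.5 and 21.3 CPM in parental cells. It was the gene of the set with the largest increase (edgeR log2 fold change 1.20 with SE 0.28, adjusted p = 0.00445), and replicates 1 and 4 of the Rho0 cells lay far apart. SAMD9L had 20.8, 33.1, 36.8 and 57.2 CPM in Rho0 cells, against 24.9, 31.7, 22.8 and 28.3 CPM in parental cells. It was not called at 0.46 (SE 0.25, edgeR adjusted p = 0.141), but was called higher at 0.64 without Rho0 replicate 1 (adjusted p = 0.00986) and at 0.86 with library size alone (0.0186). Without Rho0 replicate 4 its log2 fold change was 0.14 (adjusted p = 0.513).

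The remaining genes include ubiquitin ligases and nuclear body proteins. TRIM21, a cytosolic antibody receptor, was lower at −0.76 (edgeR adjusted p = 4.47e-05), averaging 39.9 ± 4.76 CPM in Rho0 and 67.3 ± 1.78 CPM in parental cells. TRIM22, an antiviral ligase, was higher at 0.33 (edgeR adjusted p = 0.00644), averaging 92.4 ± 6.24 CPM in Rho0 and 73.3 ± 6.81 CPM in parental cells with no overlap of libraries. LGALS3BP, a secreted glycoprotein, was lower at −0.90 (edgeR adjusted p = 1.09e-04), averaging 52.4 ± 7.77 CPM in Rho0 and 97.4 ± 11.3 CPM in parental cells (SD, n = 4 each throughout). PARP9 and DTX3L, which form an ADP-ribosylating ubiquitin ligase, and PARP14, a mono-ADP-ribosyltransferase beside them on chromosome 3, were not called. Their log2 fold changes were −0.19 for PARP9, −0.17 for DTX3L (0.23 with library size alone) and −0.08 for PARP14, with edgeR adjusted p-values of 0.153, 0.116 and 0.607. SP110, a nuclear body protein, was not called either at −0.06 (0.33 with library size alone; edgeR adjusted p = 0.506), nor was XAF1, a partner of the apoptosis inhibitor XIAP, at −0.02 (edgeR adjusted p = 0.941).

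The Rho0 libraries differed among themselves more than the parental ones for several genes, along base composition. Rho0 replicate 4 was the highest Rho0 library for 20 of the 42 genes (47.6%, against 38.5% of all genes tested) and replicate 1 the lowest for 19 (45.2%, against 34.1%). The set was also uneven among parental libraries. Parental replicate 2 was the highest of them for 20 genes (47.6%, against 20.3% of all genes tested). Parental replicate 3 was the lowest for 20 (47.6%, against 30.8%). Across the 42 genes, the log2 ratio of Rho0 replicate 4 to replicate 1 had a Spearman rho of −0.831 with the GC content of the transcripts. Across 14230 genes tested with a known GC content the rho was −0.692. These are descriptions across genes of the same libraries, which are not independent replicates. AT-rich transcripts such as those of SAMD9, IFI16 and DDX60 were high in replicate 4, and GC-rich ones such as ISG15 and IFITM3 were low in it. When the fit was corrected for the length and GC content of transcripts, an alternative chosen after the data were seen, 5 genes were higher and 31 lower in Rho0 cells, where 29.2% of all genes were higher and 33.8% lower, and the median was −0.59. The additional lower calls included IFI16 (−0.35), PARP9 (−0.46), DTX3L (−0.41) and PARP14 (−0.44), with edgeR adjusted p-values of 5.55e-04, 5.56e-05, 4.06e-04 and 1.12e-05. SAMD9 remained called higher, at 0.56 (edgeR adjusted p = 0.00456).

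**Figure D4:**
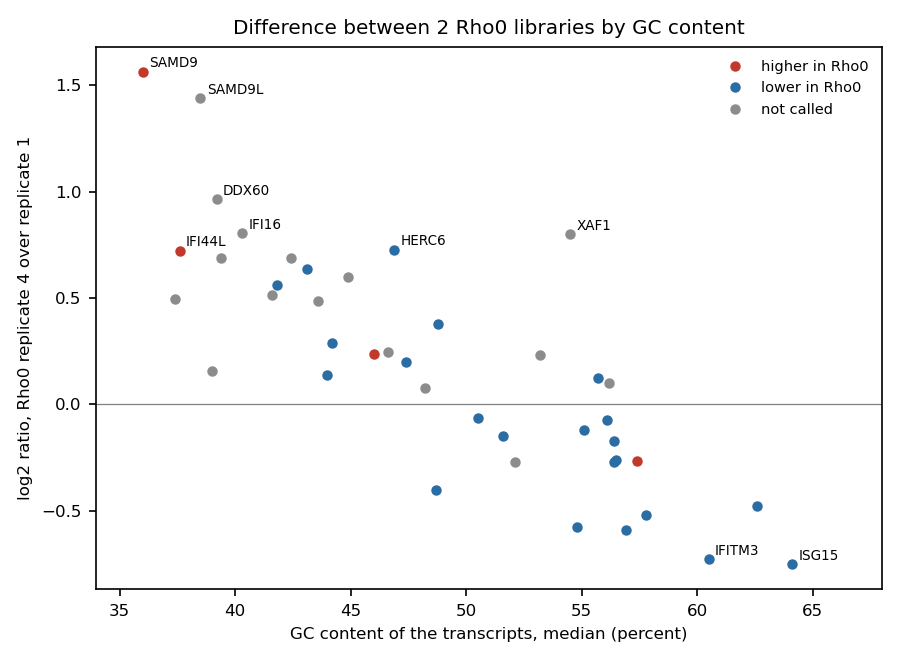
Log2 ratio of Rho0 replicate 4 over Rho0 replicate 1 against the GC content of the transcripts in percent, 1 point for each of the 42 tested interferon-stimulated genes. The ratio falls with GC content (Spearman rho −0.831 across genes), with points above 0 at the AT-rich end and below 0 for ISG15 and IFITM3.

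Upstream of these genes, the interferons themselves were nearly silent. Of 21 listed interferon genes 13 had no count in any library, among them IFNB1 and IFNG, and only IFNE, a type I interferon of epithelia, could be tested. IFNE had 0.561, 0.829, 0.686 and 0.834 CPM in Rho0 cells, against 0.138, 0.159, 0.0516 and 0.186 CPM in parental cells. It was higher in Rho0 cells with no overlap (edgeR log2 fold change 2.36 with SE 0.34, adjusted p = 1.85e-04), at a level under 1 CPM in all 8 libraries.

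Of 9 listed receptor and kinase genes 8 were tested. In Rho0 cells 5 were higher (62.5%, where 29.0% of all genes tested were higher) and 2 of the 8 were lower (where 25.4% of all were lower). JAK1, the kinase on both the type I and the type II receptor, had 159.8, 190.1, 183 and 215 CPM in Rho0 cells, against 441, 486, 489 and 482 CPM in parental cells. No library came near the other group (edgeR log2 fold change −1.34 with SE 0.09, adjusted p = 7.4e-07). TYK2, its partner on the type I receptor, was lower at −0.38 (edgeR adjusted p = 0.00381), with a fold change near 0 (0.0064) when library size alone was used. The chains of the type I and type II receptors were higher: IFNAR1 by 0.41 (edgeR adjusted p = 0.00327), IFNAR2 by 0.27 (0.00452), IFNGR1 by 1.48 (6.35e-06) and IFNGR2 by 0.63 (0.0146), on the log2 scale. IFNGR1 averaged 10.9 ± 1.85 CPM in Rho0 and 3.90 ± 0.278 CPM in parental cells (SD, n = 4 each). JAK2, which serves the interferon-gamma receptor, was higher by 0.67 (edgeR adjusted p = 0.0109).

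Of 7 further transcription factors of the response, 5 were lower in Rho0 cells (71.4%, beside 25.4% of all genes) and 1 was higher (14.3%, beside 29.0%); with library size alone 4 of the 7 were called. NLRC5, the activator of MHC class I genes, had 25.7, 28.2, 24.5 and 26.0 CPM in Rho0 cells, against 101, 101, 94.5 and 98.5 CPM in parental cells (edgeR log2 fold change −1.92 with SE 0.07, adjusted p = 6.97e-09). CIITA, the activator of MHC class II genes, went the other way at 0.82 (edgeR adjusted p = 1.1e-05). BATF2 was lower at −1.05 (edgeR adjusted p = 1.32e-04), and IRF3, which carries the signal from nucleic acid sensors, at −0.54 (edgeR adjusted p = 0.00198; −0.15 and not called with library size alone, adjusted p = 0.202).

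Among 5 tested negative regulators 2 were higher (40.0%) and 1 lower (20.0%), beside 29.0% higher and 25.4% lower over all genes. SOCS1, which inhibits the JAK kinases, was lower at −1.21 (edgeR adjusted p = 1.94e-04), averaging 1.80 ± 0.422 CPM in Rho0 and 4.10 ± 0.103 CPM in parental cells (SD, n = 4 each), while SOCS3 was higher at 0.40 (edgeR adjusted p = 0.00321). The phosphatase PTPN11 was at the threshold (0.37, edgeR adjusted p = 0.0481) and was called in only 1 of the 8 fits that left out a library. Of 13 tested sensors and adaptors 8 were not called, 2 were higher (15.4%) and 3 lower (23.1%). Both shares were below those of all genes (29.0% higher and 25.4% lower). CGAS, the cytosolic DNA sensor, was lower at −0.86 (edgeR adjusted p = 7.46e-05), averaging 4.56 ± 0.338 CPM in Rho0 and 8.23 ± 0.720 CPM in parental cells. MAVS, the mitochondrial adaptor of RNA sensing, was lower at −0.35 (edgeR adjusted p = 9.75e-04; 0.04 with library size alone), and TRIM25, a ligase of that pathway, at −0.43 (edgeR adjusted p = 1.78e-04; −0.04 and not called with library size alone, adjusted p = 0.609). DHX58 was higher at 0.71 (edgeR adjusted p = 0.00858), and TBK1 at 0.37 (edgeR adjusted p = 0.0464) was called in only 2 of the 8 fits that left out a library.

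**Figure D5:**
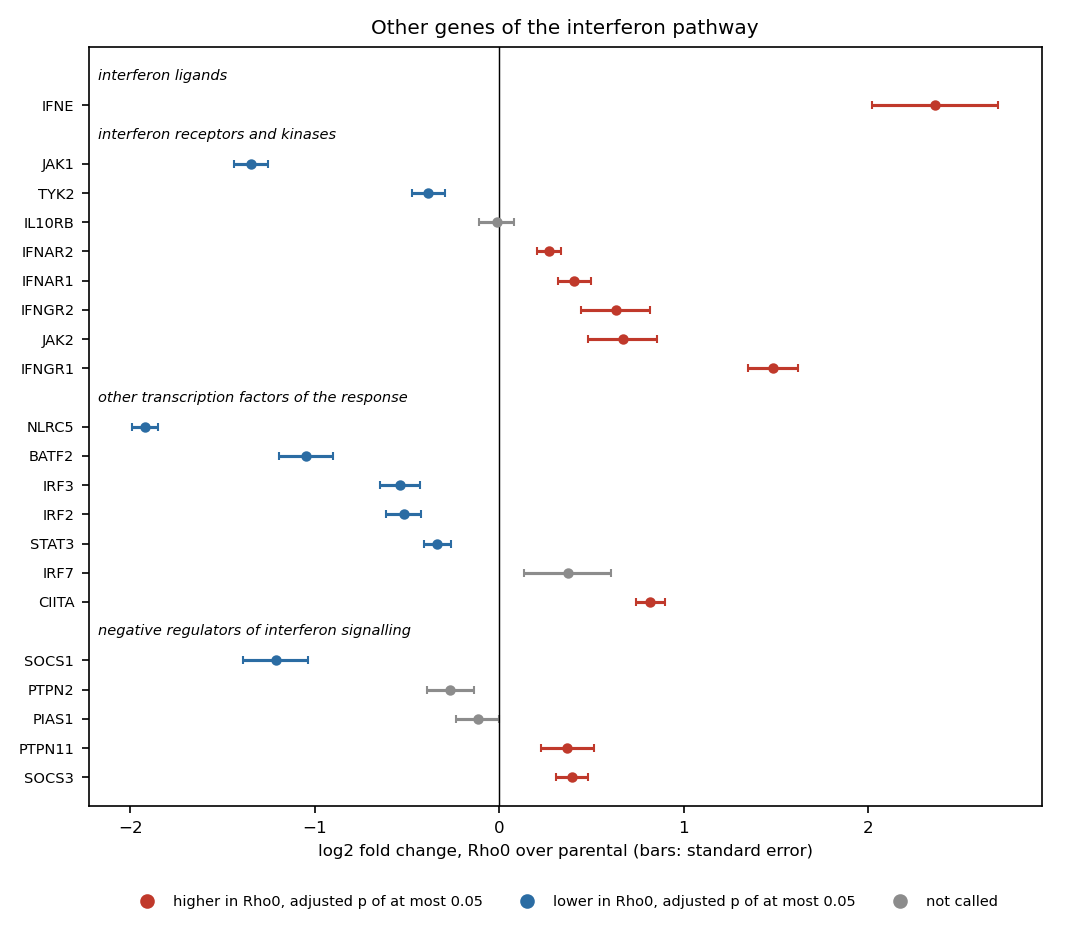
Log2 fold change, Rho0 over parental, of the tested genes upstream of and around the set (interferons, receptors and kinases, further transcription factors, negative regulators), with bars of 1 standard error from the edgeR fit (4 libraries a group). The 4 chains IFNAR1, IFNAR2, IFNGR1 and IFNGR2 lie right of 0, while JAK1 (−1.34), NLRC5 (−1.92) and SOCS1 (−1.21) lie left of it.

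A wider list of 30 other interferon-stimulated genes, of which 29 were tested, held 14 lower genes (48.3%, beside 25.4% of all genes) and 6 higher genes (20.7%, beside 29.0%), with a median log2 fold change of −0.18 beside 0.05 over all genes. CD274, which encodes the immune checkpoint ligand PD-L1, had 1.82, 2.34, 2.19 and 2.52 CPM in Rho0 cells, against 12.2, 12.4, 10.4 and 11.8 CPM in parental cells (edgeR log2 fold change −2.40 with SE 0.13, adjusted p = 1.07e-07). RTP4 was lower at −1.98 (edgeR adjusted p = 5.9e-04) and APOL1, which lyses trypanosomes, at −1.93 (edgeR adjusted p = 1.59e-07). Among the higher genes with at least 1 CPM were PARP11 at 0.91, PLSCR1 at 0.51 and SP100 at 0.48, with edgeR adjusted p-values of 9.43e-04, 0.00239 and 0.0105. TNFSF10, the death ligand TRAIL, averaged below 1 CPM in both groups and was higher at 1.51 (edgeR adjusted p = 0.00152). Of 18 genes known chiefly as interferon-gamma targets only 9 were tested. Of these 4 were lower (44.4%, beside 25.4% of all genes) and 3 higher (33.3%, beside 29.0%). Their median log2 fold change was 0.05, beside 0.05 over all genes. The lower ones included GBP4 (−1.40), the immunoproteasome subunit PSMB8 (−1.22) and the peptide transporter TAP1 (−1.09), with edgeR adjusted p-values of 2.31e-05, 3.66e-05 and 4.52e-05. The higher ones were CD74, the MHC class II chaperone (1.24), WARS1 (0.41) and ICAM1 (0.38), with edgeR adjusted p-values of 2.11e-05, 0.00155 and 0.00428. The chemokines CXCL9, CXCL10 and CXCL11, which attract T cells, had at most 1 count in any library.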

How the data were processed

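RNA was isolated from 4 Rho0 and 4 parental cultures, and stranded libraries enriched for polyadenylated RNA were made from 2 ng of total RNA, per the labels' protocols. Kallisto, limma, edgeR and GRCh38 are named in the submitters' processing notes with no version; which annotation release was used is not stated in them. The deposited tables hold estimated counts per gene and, by their values, log2 expression made by the authors. The estimated counts were rounded, scaled by TMM and filtered with filterByExpr (minimum count 10), and groups were compared by the edgeR 4.0.16 quasi-likelihood test (R 4.3.3) with Benjamini-Hochberg adjustment over 15184 genes, called at an adjusted p of at most 0.05. Standard errors are the log2 fold change divided by the root of F. The log2 values deposited by the authors were used only in an alternative with limma 3.58.1. Other alternatives used DESeq2 1.42.0, its size factors, library size alone, other filters, limma-voom, a replicate block, each library left out, and, added after seeing the data, a length and GC correction. The steps were tested on simulated data. Replicate libraries differed beyond sampling noise, and none was counted as a duplicate.

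The genes, gene lists and tests were chosen with earlier results of these data known. Values in every library are given for called genes of the set that changed by 1 log2 unit or more and had at least 1 CPM in the higher group, for STAT2, IRF1 and IRF9, and for the 5 genes with the highest mean CPM. They are also given for OAS1, ISG15, IFI27 and SAMD9L, which fall outside these rules. From each other list up to 3 called genes a direction with at least 1 CPM, and IFNB1, IFNAR1, IFNAR2, JAK1 and TYK2, could be named, IFNE being the only tested interferon. Some genes were named outside this rule. Among them were UBE2L6, KRT7, which was not called, and EPCAM and TNFSF10, which averaged below 1 CPM in both groups. One gene of the pathway is not reported here. Gene names were matched by Ensembl identifier in GENCODE 29, whose transcripts also gave lengths, GC content and shared 31-base stretches. Promoters were read from RefSeq windows. Intervals and limits for counts of 0 cover counting error only.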

Additional observations from a re-analysis of the deposited data

Results flagged for a closer look

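Each of 174 groups of 4 libraries was examined for a single library far from the other 3, by Dixon's test at the 95% level, which by chance picks out about 1 group in 20; 10 groups were picked out. Among the interferon-stimulated genes these were MX1 in Rho0 replicate 4 (3.52 CPM, above 2.83 to 2.92 in the other Rho0 libraries), LGALS3BP in Rho0 replicate 4 (40.9 CPM, below 54.4 to 57.2), LGALS3BP in parental replicate 3 (114 CPM, above 91.1 to 92.4) and IFIT2 in parental replicate 3 (3.14 CPM, below 4.41 to 4.61). Among pathway genes they were CIITA in Rho0 replicate 4 (18.9 CPM, above 17.3 to 17.6), JAK1 in parental replicate 1 (441 CPM, below 482 to 489) and BATF2 in parental replicate 3 (20.5 CPM, above 17.1 to 17.4). Among cell type markers, parental replicate 3 stood apart for TEK (86.9 CPM, below 96.3 to 97.2), ESAM (459 CPM, above 393 to 403) and KRT18 (992 CPM, above 859 to 879). Parental replicate 3 thus accounts for 6 of the 10. Without it, 24 interferon-stimulated genes were lower and 4 higher in Rho0 cells, and none of the genes listed here changed its direction. The share of all genes called in that fit is not given here, so these counts do not separate the set from genes at large. Relative to the median of all genes, the median of the set was −0.58 without parental replicate 3 and −0.49 with all libraries.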

How the results depend on the processing

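Of the 26 called interferon-stimulated genes, 19 kept their call in all 18 alternative settings, and 24 in all of them except library size alone. Library size alone gave 10 higher and 15 lower genes of the set, a median of −0.0512, and 8583 higher and 1540 lower genes overall; it turned the sign of IRF9 (0.12), DTX3L (0.23), SP110 (0.33), TYK2 (0.0064) and MAVS (0.0441), and of IFIT5 (0.29), IFI16 (0.37), IFI44 (0.17), MX1 (0.16), PARP9 (0.20), PARP14 (0.31) and XAF1 (0.37), which were called with neither scaling. The length and GC correction gave a median of −0.59 and 5 called negative regulators in place of 3. Leaving out 1 library at a time gave 4 to 5 higher and 20 to 27 lower genes, with medians of −0.53 to −0.41. The share of all genes called in each of these fits is not given here, so these counts do not separate the set from genes at large. Relative to the median of all genes in the same fit, the median of the set was −0.58 to −0.46, beside −0.49 with all libraries. With the replicate number as a block 4 genes were higher and 23 lower, again without the share of all genes. The median relative to that of all genes was −0.48 in that fit. The labels do not say that a replicate number marks a shared day or batch. Same-numbered libraries deviated together with correlations of −0.135 to 0.155. These cannot decide whether the samples are paired, because differences between libraries along GC content enter them too. By limma on the deposited log2 values RTP4 stood at −0.78, IFNGR2 at 0.24 and DHX58 at 0.42; the length and GC correction gave JAK2 0.43, PARP11 0.53, SP100 0.29, IFIT2 −0.88 and MAVS −0.61. At 0 to 4 counts a library, as for RSAD2 in Rho0 cells, depth limits what can be said. Where no cause is shown above, the cause was not tested.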

Other observations

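Of the genes beside the set, DTX1, a regulator of Notch signalling that lies next to OAS2 on chromosome 12 (113056709 to 113098028, GRCh38, GENCODE 29), was higher in Rho0 cells where the OAS genes were lower; it was singled out after its values were seen. DTX1 had 0.477, 0.603, 0.557 and 0.496 CPM in Rho0 cells and was at 0 in all 4 parental libraries (edgeR adjusted p = 7.75e-05), while OAS2 was 5.54-fold lower in Rho0 cells. Within 200 kb of the 10 places where members of the set lie beside each other, 41 other genes were tested, of which 14 were higher, 4 lower and 23 not called; over all genes tested 29.0% were higher and 25.4% lower. At the same places 24 interferon-stimulated genes of the set were tested, of which 2 were higher and 12 lower. The 41 other genes include GBP4, which was lower, and GBP5, which was not called. Both are in the list of interferon-gamma targets above, so the other genes are not all free of interferon control.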
